A study of Mus musculus with 6 samples.

Results

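The Hox cluster genes of mouse tail skin were the 38 genes whose symbol in the count table is Hox followed by a cluster letter (a to d) and a number, with Hoxc13 left out. They are 38 of 18180 genes in the table, 11 in the HoxA cluster, 10 in HoxB, 8 in HoxC and 9 in HoxD. RNA was sequenced from whole tail skin in 2 groups of 3 libraries. The control libraries came from mice with both Mettl3 alleles floxed (Mettl3fl/fl;K14creERT2-/-), taken from normal tails. The libraries labelled cKO came from Mettl3fl/fl;K14creERT2+/- mice, taken from tail areas with spontaneous inflammation. Tamoxifen was given on 5 days in a row and skin was taken 4 weeks later, and the design text does not set the control mice apart in this. The promoter of K14, a keratin of basal keratinocytes, drives the tamoxifen-dependent Cre recombinase, so recombination is aimed at keratinocytes. Mettl3 encodes the catalytic subunit of the N6-methyladenosine RNA methyltransferase. Genotype and inflamed tissue go together in this design and cannot be told apart, and no label says that the 3 libraries of each group are 3 animals. The p-values below thus reflect library-to-library spread alone, part or all of which may be technical.

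Hox genes encode homeodomain transcription factors that give cells their position along the body axis and the limbs. They lie in clusters, numbered in paralogous groups, and the order of the genes along a cluster matches the order in which they are used from head to tail. Low-numbered genes act towards the hindbrain, and high-numbered genes towards the lower trunk, tail, digits and genitalia. Adult skin keeps part of this code: dermal fibroblasts from different body sites hold different sets of Hox transcripts. Hox proteins bind DNA at short sites around TAAT and often do so together with the TALE homeodomain cofactors of the Pbx and Meis families. Polycomb complexes hold Hox clusters silent and trithorax-type complexes keep them active.

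Promoter windows were read for the 3 members with the highest FPKM in both groups, Hoxd9, Hoxd8 and Hoxa9, and for Hoxd13, which was almost absent. The windows are those of RefSeq on GRCm38.p6, from 250 to 51 bases before the annotated start, printed 5′ to 3′ on the gene's strand. The expression tables were made on mm39, and no coordinate was carried between builds. Hoxa9 lies on the minus strand of chromosome 6 (chr6:52227421-52227620). Hoxd8 (chr2:74704365-74704564), Hoxd9 (chr2:74697513-74697712) and Hoxd13 (chr2:74667975-74668174) lie on the plus strand of chromosome 2. Capitals mark TAAT on either strand.
Hoxa9: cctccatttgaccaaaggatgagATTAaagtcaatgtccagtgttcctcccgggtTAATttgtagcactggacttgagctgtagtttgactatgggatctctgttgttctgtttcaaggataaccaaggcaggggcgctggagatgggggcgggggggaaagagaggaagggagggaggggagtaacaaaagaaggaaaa
Hoxd8: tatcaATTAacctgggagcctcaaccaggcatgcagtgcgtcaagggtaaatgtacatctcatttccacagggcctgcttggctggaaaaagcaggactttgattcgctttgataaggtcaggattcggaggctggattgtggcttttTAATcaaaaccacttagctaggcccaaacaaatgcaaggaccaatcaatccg
Hoxd9: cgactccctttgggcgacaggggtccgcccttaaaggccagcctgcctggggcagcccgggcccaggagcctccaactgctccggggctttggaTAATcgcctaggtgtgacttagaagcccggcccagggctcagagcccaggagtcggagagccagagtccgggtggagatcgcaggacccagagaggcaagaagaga
Hoxd13: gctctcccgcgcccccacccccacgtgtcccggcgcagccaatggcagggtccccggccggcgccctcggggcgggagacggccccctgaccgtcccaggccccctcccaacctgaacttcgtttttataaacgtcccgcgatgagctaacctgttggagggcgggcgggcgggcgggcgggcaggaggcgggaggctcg
TAAT occurred 2 times in the Hoxa9 window, 2 times in the Hoxd8 window, 1 time in the Hoxd9 window and 0 times in the Hoxd13 window. It occurred in 50.1% of 32851 windows of the same length over all genes, and in 16 of the 24 windows of the 22 members that had an entry. The longer motif TGATNNAT, a composite site of Hox and Pbx proteins, was searched on both strands and was in none of the 4 printed windows. It occurred in 6.44% of all windows and in 3 of the 24 Hox windows. The base composition differed between the windows, with a GC content of 49.5% for Hoxa9, 46.5% for Hoxd8, 65.5% for Hoxd9 and 74% for Hoxd13. The median was 51.5% over all windows and 58% over the 24 Hox windows. The 4 printed windows were chosen by level and do not stand for the other members. The window of Hoxd10, also among the highest members, had 0 TAAT and a GC content of 69.5%. That of Hoxd12, which had almost no counts, had 1 TAAT and 58%. A match is a run of letters and not a measured binding site.

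The tissue held the transcripts of skin, with summed FPKM (counts scaled to gene length and library total) of 8 basal keratinocyte markers at 4572 to 4688 in control and 6669 to 6829 in the libraries labelled cKO. Total counts ran from 35855880 to 37043849 per library. The targeted gene went against its label: Mettl3 counts, taken over the whole gene, were 440, 389 and 337 in control against 569, 512 and 540 under the cKO label (log2 fold change 0.48, adjusted p = 0.000102). Whether these counts lie inside or outside the floxed part cannot be read from a whole-gene table. All directions below are therefore those of the libraries labelled cKO. Over all genes, 15061 passed the low-count filter and 9244 of them (61.4%) changed at an adjusted p under 0.05, 30.8% higher and 30.6% lower.

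Among the 38 members, levels in tail skin were led by groups 8 to 11 of HoxD and by Hoxa9. In control skin 5 of the 38 genes had a mean over 10 FPKM, 13 lay between 1 and 10, 15 between 0.1 and 1, and 5 at 0.1 FPKM or less. FPKM is divided by gene length, so levels of different genes can be set side by side on it. It rests on 1 length per gene, from 915 bases for Hoxc11 to 10599 for Hoxa3. That length need not be the length of the transcripts made, so the order of levels is approximate. Where spans overlap, as for Hoxd10 and Hoxd11, reads may be shared and the level is less sure. Hoxd9, a gene of the lumbar and hindlimb levels of the embryo, was the highest member at 26.7, 28.7 and 29.4 FPKM in the control libraries. It read 21.1, 22.2 and 22.1 FPKM in the libraries labelled cKO, all below the control libraries. Hoxd8, its neighbour in the cluster, read 23.7, 23.3 and 22.3 FPKM in control and 17.6, 16.9 and 18.3 in those labelled cKO. Again the groups did not overlap.

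Hoxa9, which also keeps blood stem cells active, read 23.5, 21.5 and 23.0 FPKM in control, a range that overlapped with Hoxd8. In the libraries labelled cKO it read 12.6, 13.4 and 13.5 FPKM and no longer overlapped with Hoxd8. Hoxd10 read 14.4, 14.0 and 13.1 FPKM in control against 9.80, 10.4 and 10.7. Hoxd11, which with Hoxa11 shapes the forearm in the embryo, read 10.6, 10.3 and 10.3 FPKM against 7.73, 8.58 and 7.64. These 5 genes held 67.7% to 68.5% of the summed Hox FPKM in control and 61.3% to 64.7% in the libraries labelled cKO. In both groups they were the first 5 in the same order of means. A step of 1.75-fold in control and 1.85-fold in the libraries labelled cKO separated the fifth member from the sixth.

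**Figure D1:**
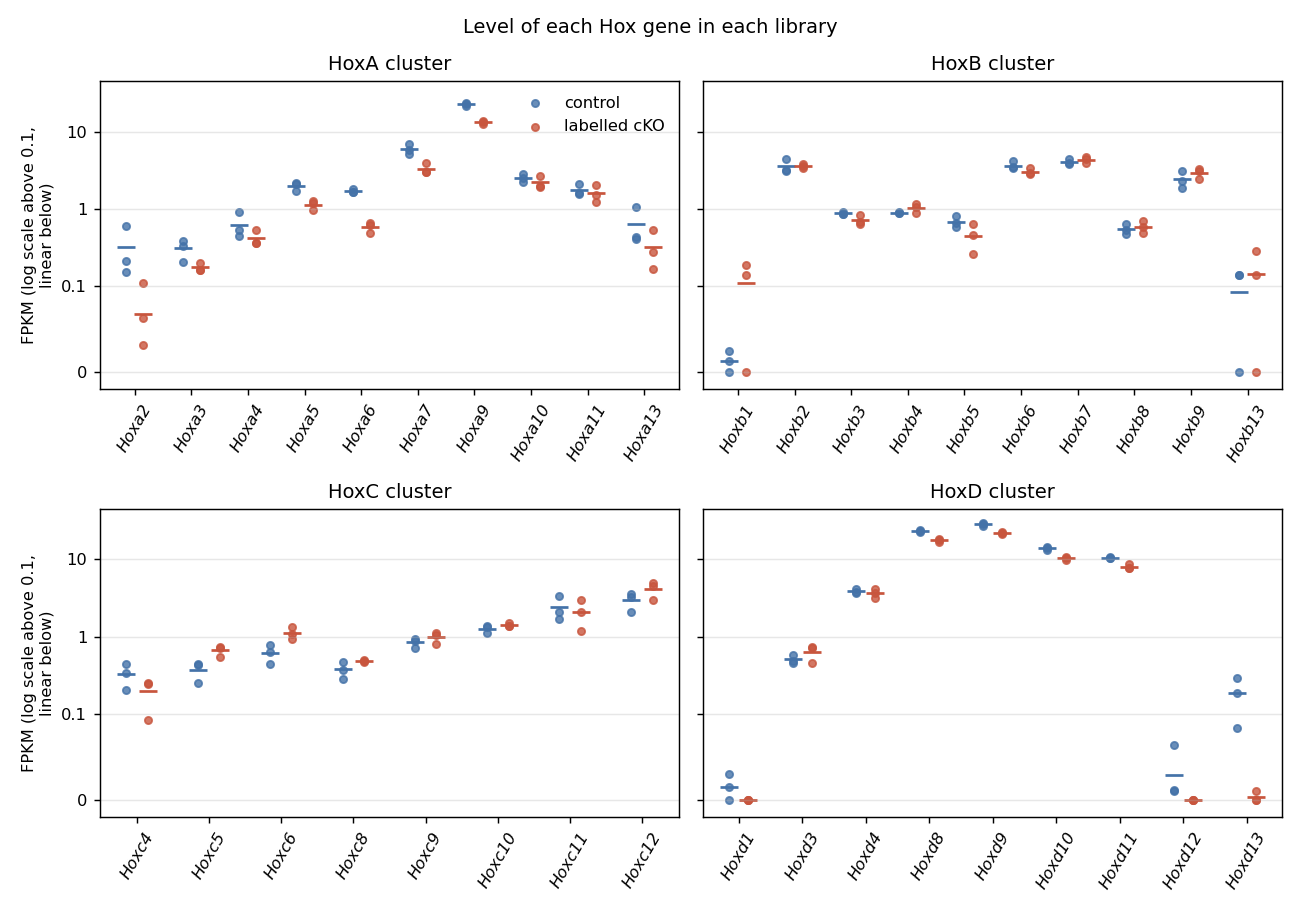
FPKM of each Hox gene reported here in each of the 3 control libraries (blue) and 3 libraries labelled cKO (red), 1 panel per cluster, genes ordered by paralogous group. Short bars are group means, and the axis is logarithmic above 0.1 FPKM and linear below. Hoxd8 to Hoxd11 and Hoxa9 stand above the rest, and Hoxd12 and Hoxd13 lie near 0.

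Below them the order was close. Hoxa7 was the sixth member in control, at 6.80, 5.84 and 5.14 FPKM, and did not overlap with its neighbours in the order. In the libraries labelled cKO it read 2.99, 3.88 and 3.01 FPKM and was the tenth. Hoxb7 (4.05 ± 0.343 FPKM in control, SD, n = 3), Hoxd4 (3.85 ± 0.231), Hoxb6 (3.63 ± 0.415) and Hoxb2 (3.56 ± 0.788) followed, each within the spread of the next. Hoxc12, the highest of the 8 HoxC members, had 2.97 ± 0.813 FPKM in control against 4.09 ± 1.02 in the libraries labelled cKO. Position in the cluster did not order the levels alone. Hoxa13, Hoxd12 and Hoxd13 were at 0.630 ± 0.364, 0.0285 ± 0.0307 and 0.188 ± 0.103 FPKM in control, below Hoxa9 and Hoxd9. In HoxC the order ran the other way, with Hoxc11 (2.40 ± 0.890 FPKM) and Hoxc12 above Hoxc10 (1.27 ± 0.135).

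Of the 32 members that passed the low-count filter, 9 fell and 3 rose, against 30.6% and 30.8% of all genes tested. The shares were 28.1% lower and 9.38% higher, and 20 members did not pass the test. The median log2 fold change of the 32 was -0.22, beside 0.0021 over all genes tested. The libraries of the groups did not overlap in 14 of the 32 (11 lower and 3 higher), or 43.8%, where 64.9% of all genes tested did not overlap (32.3% lower and 32.6% higher). Many of the 32 had few counts and large SE, and no share was taken over genes of like abundance. The part of low counts in these lower shares was not tested. All 9 falls were in HoxA (5 of 10 tested) and HoxD (4 of 6 tested). Hoxc5 and Hoxc6 were among the 3 rises, and none of the 8 tested HoxB genes passed. HoxC is counted here without Hoxc13, so its calls do not stand for the whole cluster. The split between clusters was itself not tested.

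**Figure D2:**
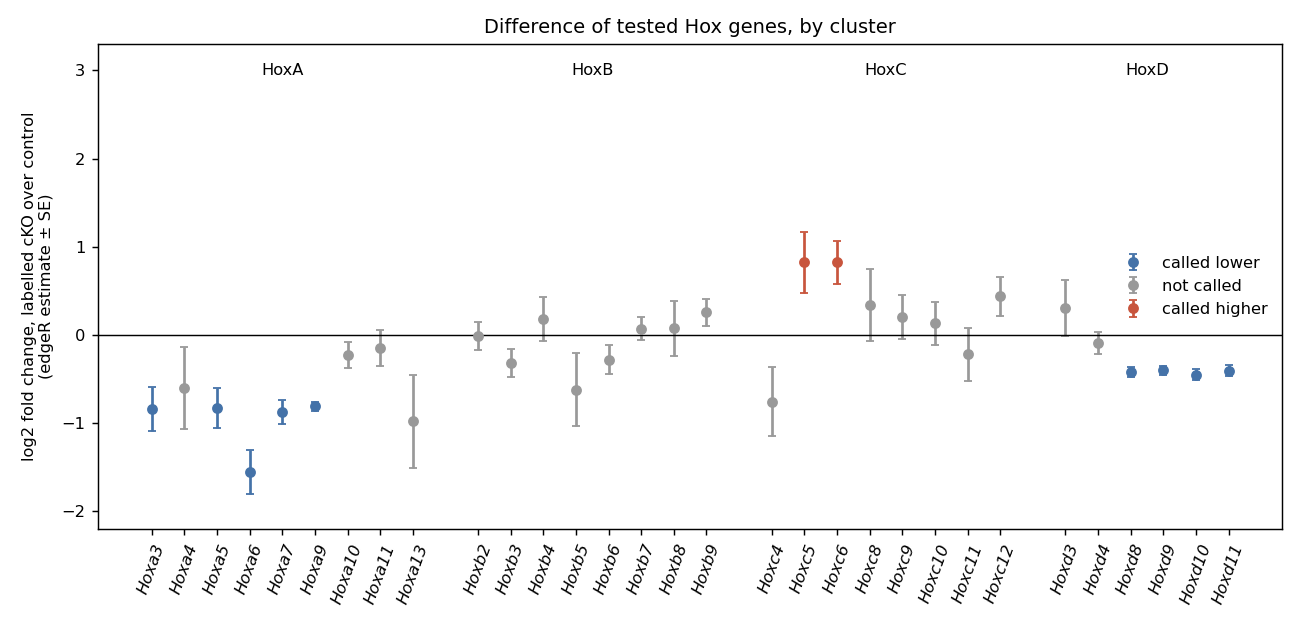
Log2 fold change of the libraries labelled cKO over control (edgeR estimate, bars ± SE) for the tested Hox genes reported here, by cluster and paralogous group. The 9 genes called lower (blue) lie in HoxA and HoxD, and Hoxc5 and Hoxc6 (red) are called higher, while all 8 tested HoxB genes are grey.

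The falls in HoxA were in Hoxa3, Hoxa5, Hoxa6, Hoxa7 and Hoxa9, and Hoxa4 among them did not pass. Hoxa9 (NCBI gene 15405) had 2815, 2509 and 2749 counts in control against 1455, 1556 and 1575 in the libraries labelled cKO. It fell 1.75-fold, from 73.9 ± 3.44 to 42.1 ± 1.61 CPM (counts scaled to a common library size; mean ± SD, n = 3 per group). The adjusted p was 5.88e-24 in edgeR's quasi-likelihood test, and the log2 fold change was -0.81 with an SE of 0.050. In bulk tissue, fewer cells of a type and less RNA per cell cannot be told apart. Hoxa7 (NCBI gene 15404), whose protein acts in the trunk, had 492, 412 and 371 counts against 209, 273 and 212. Every library labelled cKO was below every control library, and it fell 1.83-fold (log2 fold change -0.87, SE 0.13, adjusted p = 3.91e-08).

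Hoxa6 (NCBI gene 15403) had the largest fall among the 32 tested members. It had 150, 136 and 136 counts in control against 39, 53 and 51 in the libraries labelled cKO, a 2.93-fold fall from 3.86 ± 0.2002 to 1.31 ± 0.204 CPM (adjusted p = 1.57e-07, log2 fold change -1.55 with an SE of 0.25). Hoxa5, known for its part in lung and airway development, had 117, 148 and 144 counts against 84, 66 and 80. It fell 1.77-fold (log2 fold change -0.82, SE 0.23, adjusted p = 0.00133). Hoxa3, a gene of the pharyngeal organs, had 151, 79 and 130 counts against 62, 61 and 77. It fell 1.79-fold (adjusted p = 0.00319), but without control replicate 1 its adjusted p was 0.0547. The spans of Hoxa4, Hoxa5 and Hoxa6 overlap that of Hoxa3 in the RefSeq annotation, so their reads may be shared in part with Hoxa3.

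The other HoxA genes did not pass. Hoxa4 had 25, 50 and 30 counts against 29, 20 and 20, and the groups overlapped (adjusted p = 0.270). Hoxa10, next to Hoxa9 and a gene of the uterus and lumbar spine, had 261, 320 and 295 counts against 301, 220 and 224. Its log2 fold change was -0.23 with a 95% interval from -0.51 to 0.057, and without cKO replicate 1 it was -0.39 (adjusted p = 0.0336). Without control replicate 2, cKO replicate 2 or cKO replicate 3 it was between -0.15 and -0.14. Hoxa11 had 132, 133 and 177 counts against 101, 170 and 126, with an interval from -0.55 to 0.25. For Hoxa9 the interval ran from -0.91 to -0.71. The difference between Hoxa9 and its 5′ neighbours Hoxa10 and Hoxa11 was not tested.

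In HoxD the neighbouring genes Hoxd8 to Hoxd11 fell by 1.32-fold to 1.36-fold each. Hoxd9 (NCBI gene 15438) had 2080, 2175 and 2282 counts in control against 1589, 1678 and 1677 in the libraries labelled cKO. It fell 1.32-fold (log2 fold change -0.40, SE 0.052, adjusted p = 4.23e-10). Hoxd8 fell 1.33-fold (1893, 1819 and 1785 counts against 1364, 1313 and 1429, adjusted p = 1.22e-09). In both genes the highest library labelled cKO lay below the lowest control library.

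Hoxd10, which is active in the hindlimb and lumbar motor neurons, fell 1.36-fold (1482, 1407 and 1349 counts against 979, 1045 and 1072, adjusted p = 7.96e-09). Hoxd11 fell 1.32-fold (1550, 1467 and 1513 counts against 1097, 1223 and 1093, adjusted p = 4.56e-08). The spans of Hoxd10 and Hoxd11 overlap in the RefSeq annotation. These 4 calls depended on the small spread between libraries. With an assumed coefficient of variation of 20% between libraries, at which 10.2% of all genes tested were lower, their adjusted p ranged from 0.179 to 0.245. Under that setting Hoxa3, Hoxa5, Hoxa6, Hoxa7 and Hoxa9 were still called lower.

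Further towards the 3′ end of HoxD the levels did not pass the test. Hoxd4, a gene of the hindbrain and neck vertebrae, had 355, 380 and 349 counts against 384, 339 and 295, with a 95% interval of the log2 fold change from -0.33 to 0.16. Hoxd3 had 52, 48 and 62 counts against 75, 47 and 77, and the groups overlapped. The difference between these genes and Hoxd8 to Hoxd11 was not tested.

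The HoxB genes gave no call. None of the 8 tested members passed, with log2 fold changes from -0.62 for Hoxb5 to 0.26 for Hoxb9. Hoxb7, the highest of them, had 312, 293 and 352 counts in control against 335, 361 and 305 in the libraries labelled cKO. Its 95% interval ran from -0.18 to 0.32 on the log2 scale. Hoxb2, a hindbrain gene, had 201, 192 and 286 counts against 224, 238 and 209 (log2 fold change -0.01). Its direction flipped to 0.02 with upper quartile scaling and to 0.01 with library totals alone. Hoxb3 (248, 244 and 262 counts against 180, 235 and 188) and Hoxb6 (205, 195 and 245 against 194, 170 and 165) were lower in all 3 libraries labelled cKO without passing (adjusted p = 0.0705 and 0.140). Without cKO replicate 2, Hoxb3 had an adjusted p of 0.0262, and without any other single library it was 0.0981 to 0.222. Hoxb9 was at 311, 223 and 185 counts against 239, 299 and 320, and without control replicate 1 it was called higher (log2 fold change 0.49, adjusted p = 0.0106), while without control replicate 3 it was at 0.10 (adjusted p = 0.614). Hoxb4 and Hoxb8 had overlapping groups and intervals from -0.31 to 0.67 and from -0.54 to 0.69.

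In HoxC the neighbours Hoxc5 and Hoxc6, both near or under 1 FPKM, rose. Hoxc6 (NCBI gene 15425), a gene of the thorax, had 90, 70 and 51 counts in control against 149, 119 and 104 in the libraries labelled cKO. It rose 1.77-fold, from 1.93 ± 0.532 to 3.42 ± 0.647 CPM (adjusted p = 0.00296, log2 fold change 0.82 with an SE of 0.25). Hoxc5 had 45, 42 and 25 counts against 54, 71 and 73 and also rose 1.77-fold (SE 0.35, adjusted p = 0.0358). That call was lost without control replicate 3 (adjusted p = 0.162), cKO replicate 2 (0.0954) or cKO replicate 3 (0.108). Hoxc4, the next gene, had 60, 35 and 77 counts against 43, 42 and 16, with a log2 fold change of -0.76 (adjusted p = 0.0855). Without control replicate 2 it was called lower (log2 fold change -1.0, adjusted p = 0.0300), while without control replicate 3 or cKO replicate 3 it was at -0.49 and -0.42 (adjusted p = 0.370 and 0.390).

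The remaining HoxC members did not pass, with estimates from -0.22 for Hoxc11 to 0.44 for Hoxc12. Hoxc12 had 116, 125 and 73 counts against 168, 155 and 102. Without control replicate 2 or cKO replicate 3 it was called higher (log2 fold changes 0.60 and 0.64), while without control replicate 3 or cKO replicate 1 it was at 0.23 and 0.30 (adjusted p = 0.399 and 0.328). Hoxc11 spread widely within groups, at 71, 56 and 115 counts in control against 39, 99 and 69 in the libraries labelled cKO. Hoxc8 (25, 32 and 42 counts against 42, 40 and 43), Hoxc9 (73, 92 and 90 against 102, 79 and 112) and Hoxc10 (79, 91 and 97 against 93, 95 and 104) overlapped between groups.

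Summed over the members of each cluster, FPKM was lower for HoxA and HoxD in all 3 libraries labelled cKO. It was higher for HoxC without Hoxc13, and it overlapped for HoxB. HoxA summed to 39.2, 38.4 and 37.97 FPKM in control against 22.5, 24.3 and 23.0 in the libraries labelled cKO. HoxD summed to 79.7, 81.1 and 79.5 against 61.1, 62.2 and 62.7. HoxB summed to 16.4, 15.7 and 18.2 against 16.7, 18.02 and 16.1, with overlapping groups. HoxC, without Hoxc13, summed to 9.04, 9.16 and 9.31 against 11.1, 12.2 and 9.92. The HoxC values therefore do not stand for the whole cluster. These sums are led by their highest members, so HoxA is largely Hoxa9 and HoxD largely Hoxd8 to Hoxd11. The share of HoxA in all 38 genes went from 26.2% to 27.1% in control to 20.2% to 20.8% in the libraries labelled cKO, that of HoxD was 54.9% to 56.2% against 53.3% to 56.1%, and that of HoxC went from 6.26% to 6.42% to 8.89% to 10.4%. The share of HoxB was 10.9% to 12.5% against 14.4% to 15.45%. All are descriptions of the libraries, with no test over the list.

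**Figure D3:**
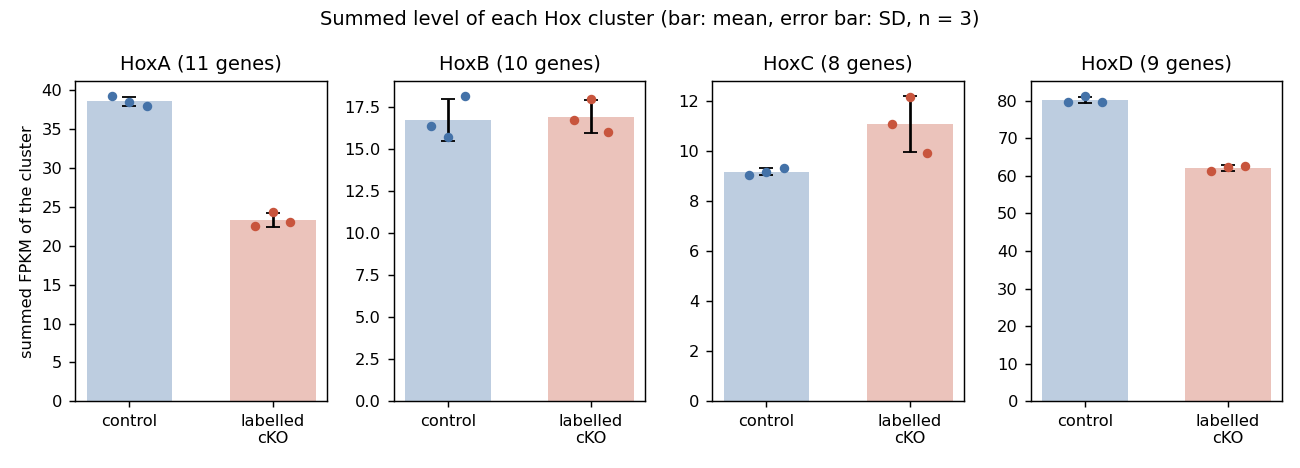
Summed FPKM of the members of each Hox cluster in each library (points), with the mean (bar) and SD (error bar, n = 3) for control in blue and the libraries labelled cKO in red. Each panel has its own axis from 0. HoxA and HoxD are lower and HoxC, without Hoxc13, is higher in all 3 libraries labelled cKO. HoxB overlaps between the groups.

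Genes at the ends of HoxA, HoxB and HoxD had few counts. Hoxa13, which patterns digits and genitalia, had 20, 50 and 21 counts against 8, 25 and 13. It did not pass (log2 fold change -0.98, adjusted p = 0.103), and without cKO replicate 2 the values were -1.52 and 0.0440. Without control replicate 2 they were -0.40 and 0.629.

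The other 6 members had too few counts for the filter and were not among the 32 tested. Hoxd13, the last gene of HoxD and a regulator of digits, had 18, 27 and 8 counts in control against 0, 1 and 0 in the libraries labelled cKO. The ratio of control to the libraries labelled cKO was 52.8 (95% interval 9.07 to 2124, counting error only). Without the count filter, a setting in which 25.4% of 18180 genes were lower, Hoxd13 had an adjusted p of 0.000127. Hoxd12 had 1, 1 and 6 counts against none and did not pass without the filter (adjusted p = 0.0728). The exact 95% interval of its ratio begins at 1.7 (counting error only). Over genes, squared differences between libraries of a group were on average 3.94 to 4.12 times those of counting error. Intervals from counting error alone, those of Hoxd13, Hoxd12 and Hoxb1 here, may thus be too narrow. Hoxd1 had 0, 2 and 1 counts against none, which is at the limit that a count of 0 allows.

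Hoxa2, a hindbrain and second-arch gene, had 14, 38 and 10 counts against 2, 4 and 7, with an adjusted p of 0.0199 without the filter. Hoxb1, another hindbrain gene, had 0, 1 and 2 counts in control against 11, 15 and 0 in the libraries labelled cKO. cKO replicate 3 thus stood with the control libraries, and the ratio over control was 8.70 (95% interval 2.67 to 44.9, counting error only). Without the filter its adjusted p was 0.0354, a setting in which 25.9% of genes were higher. Hoxb13, a gene of the tail end of the body axis and the prostate, had 0, 7 and 7 counts against 0, 14 and 7. In tail skin it was thus at 0.0933 ± 0.0808 FPKM in control against 0.142 ± 0.142 in the libraries labelled cKO.

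**Figure D4:**
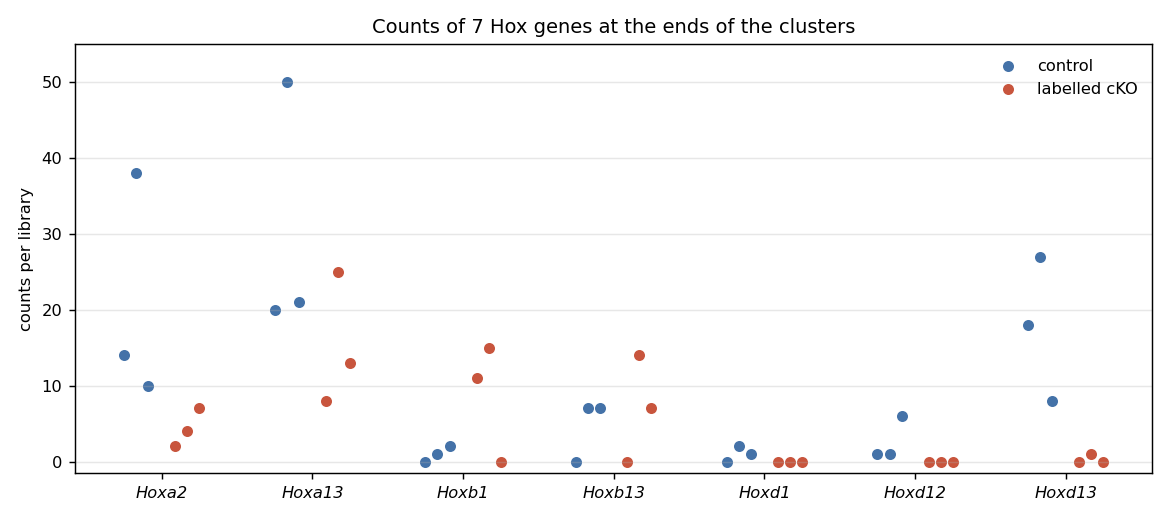
Counts per library of 7 low-abundance genes at the ends of the Hox clusters, for 3 control libraries (blue) and 3 libraries labelled cKO (red). Hoxd13 has 8 to 27 counts in control and at most 1 count in a library labelled cKO, and Hoxb1 has at most 2 in control and 11 and 15 in 2 of the 3 libraries labelled cKO.

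Markers of skin structures were read in the same libraries, where 61.4% of all genes tested were called, 30.8% higher and 30.6% lower. Of 12 fibroblast markers 10 were higher and 2 lower, and their summed level was 3254 to 3283 FPKM in control and 4236 to 4243 in the libraries labelled cKO. The fibroblast marker Pdgfra, the receptor of platelet-derived growth factor, rose 1.29-fold. Of 12 dermal papilla markers 4 were higher and 2 lower (63.6 to 65.1 against 68.5 to 75.9 FPKM). That is 50% called, under the 61.4% of all genes tested.

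Hair and appendage markers were mostly lower, where 30.6% of all genes tested were lower. Of 13 hair matrix and cortex markers 12 fell and none rose (3369 to 3439 against 1680 to 1695 FPKM). All 9 inner root sheath markers fell (3087 to 3130 against 1879 to 1896 FPKM), and so did all 4 nail and scale keratins (12986 to 13030 against 2270 to 2287). Sebaceous (7 of 8), adipocyte (7 of 8), Schwann cell (7 of 8) and smooth muscle and pericyte markers (5 of 8, with 2 higher) were also mostly lower. Of 6 tendon markers 3 were lower, 1 was higher and 2 did not pass. That is 66.7% called, near the 61.4% of all genes tested. The 6 tendon markers summed to 120.6 to 122 FPKM in control and 69.6 to 74.1 in the libraries labelled cKO.

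Leukocyte and vessel markers were mostly higher, where 30.8% of all genes tested were higher. All 10 macrophage and monocyte markers and all 6 tested neutrophil markers rose. The other 4 neutrophil markers, Camp, Ly6g, Mpo and Ngp, had too few counts to test, and their groups overlapped. Of T cell markers 4 of 5 rose, with 6 of 8 endothelial (1 lower) and 5 of 7 melanocyte markers (1 lower). Basal and suprabasal keratinocyte markers each had 4 of 8 higher and 4 lower. The 12 cartilage and bone markers summed to 1.75 to 2.06 FPKM in control and 2.86 to 3.96 in the libraries labelled cKO. Of the 6 tested, 3 were higher and 1 lower, or 66.7% called against 61.4% of all genes tested. The 12 skeletal muscle markers summed to 16.97 to 23.0 against 23.9 to 37.6 FPKM, and 2 of 10 tested were higher (20%). Of the 9 T cell markers listed, 5 were analysed here, and no marker analysed was at 0 in all 6 libraries. The part of these tissues in the Hox differences was not tested.

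Of 10 listed cofactors of Hox proteins 2 fell and none rose, 20% against 61.4% of all genes tested, with a median log2 fold change of -0.02. Meis1 fell 1.29-fold (from 7.03 ± 0.988 to 5.45 ± 1.27 CPM, adjusted p = 0.0426), though its groups overlapped. The summed level of the 10 was 34.3 to 36.2 FPKM in control and 33.5 to 34.0 in the libraries labelled cKO.

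Polycomb genes went both ways. In Polycomb repressive complex 2, which methylates histone H3 at silent Hox genes, 5 of 12 rose and 3 fell (median 0.08). That is 66.7% called, close to the 61.4% of all genes tested. Epop, which links the complex to elongin, rose 4.06-fold (from 5.78 ± 1.06 to 23.5 ± 1.53 CPM), and the accessory protein gene Jarid2 rose 1.33-fold. Ezh1, one of its methyltransferases, fell 1.56-fold (from 51.4 ± 3.34 to 32.9 ± 1.34 CPM), while the other, Ezh2, was at 19.3 ± 1.74 and 20.2 ± 2.34 CPM (adjusted p = 0.567). The core subunit gene Eed rose 1.22-fold, and the accessory genes Phf1 and Mtf2 fell 1.24-fold and 1.18-fold.

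In Polycomb repressive complex 1, some forms of which bind the methylated histone and compact chromatin, 3 of 18 rose and 6 fell (median -0.08). That is 50% called, against 61.4% of all genes tested. Its reader genes split, with Cbx7 lower 1.82-fold (from 22.7 ± 0.858 to 12.5 ± 1.01 CPM), Cbx8 higher 1.63-fold and Cbx6 higher 1.18-fold. The ring-finger genes Pcgf5 and Pcgf2 fell 1.70-fold and 1.48-fold, and Pcgf6 rose 1.33-fold. Of 16 trithorax-type activators, 4 rose and 5 fell (25% and 31.2%, against 30.8% and 30.6% of all genes tested, median 0.07). Kmt2a, the histone methyltransferase long known to maintain Hox expression, fell 1.25-fold (from 48.0 ± 0.728 to 38.4 ± 1.22 CPM, adjusted p = 7.76e-07). Men1, which encodes its partner menin, rose 1.27-fold, and Psip1, a further partner, rose 1.37-fold. The demethylase gene Kdm6a fell 1.21-fold, and Mllt3 and Mllt1, both readers of the elongation machinery, moved apart (1.64-fold higher and 1.27-fold lower).

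Of 9 tested genes that act upstream of Hox clusters, 3 rose and 3 fell, or 33.3% each way against 30.8% and 30.6% of all genes tested (median -0.07). Gdf11, a secreted factor that sets the onset of posterior Hox genes in the embryo, rose 2.19-fold from 1.33 ± 0.315 to 2.91 ± 0.813 CPM (adjusted p = 0.000480). Gmnn, which encodes the replication licensing inhibitor geminin, rose 2.03-fold and Ctcf, an insulator protein gene, 1.12-fold. The groups overlapped for Ctcf. The retinoid receptor genes Rxrb, Rarg and Rxra fell 1.33-fold, 1.199-fold and 1.09-fold. Cdx2, a homeobox gene that drives posterior Hox genes in the embryo, had too few counts to test.

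Genes on either side of the Hox clusters showed no common direction. Of 19 tested, 9 rose and 7 fell (median 0.11), so that 84.2% were called against 61.4% of all genes tested. Jazf1, beyond the HoxA cluster, fell 2.14-fold (from 3.28 ± 0.316 to 1.53 ± 0.242 CPM), and Tax1bp1, an autophagy receptor gene on the same side, fell 1.47-fold. Snx10 on the other side rose 1.46-fold. On the HoxD side Nfe2l2, the oxidative stress regulator NRF2, rose 2.75-fold (from 56.9 ± 0.441 to 156 ± 2.34 CPM). Near HoxC, Calcoco1 fell 1.96-fold and Cbx5 rose 1.34-fold. The 22 listed non-coding genes of the clusters, among them microRNA genes, were not analysed here.

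Other homeobox genes of skin had 7 of 40 higher and 11 lower (17.5% and 27.5%, against 30.8% and 30.6% of all genes tested), with a median log2 fold change of -0.19. Lhx2, a factor of hair follicle stem cells, fell 2.07-fold (from 22.3 ± 1.501 to 10.8 ± 0.859 CPM), Pou2f3 fell 1.88-fold and Msx2, a hair matrix factor, fell 1.65-fold. Prrx1, a mesenchymal factor of fibroblasts, rose 1.49-fold (from 54.9 ± 1.33 to 81.6 ± 3.19 CPM), and Irx5 rose 1.27-fold. Pitx1, a hindlimb and oral epithelium factor, was at 0.0822 ± 0.0266 against 5.94 ± 0.813 CPM. Its log2 fold change of 6.12 was far outside the range of the tested Hox genes.

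**Figure D5:**
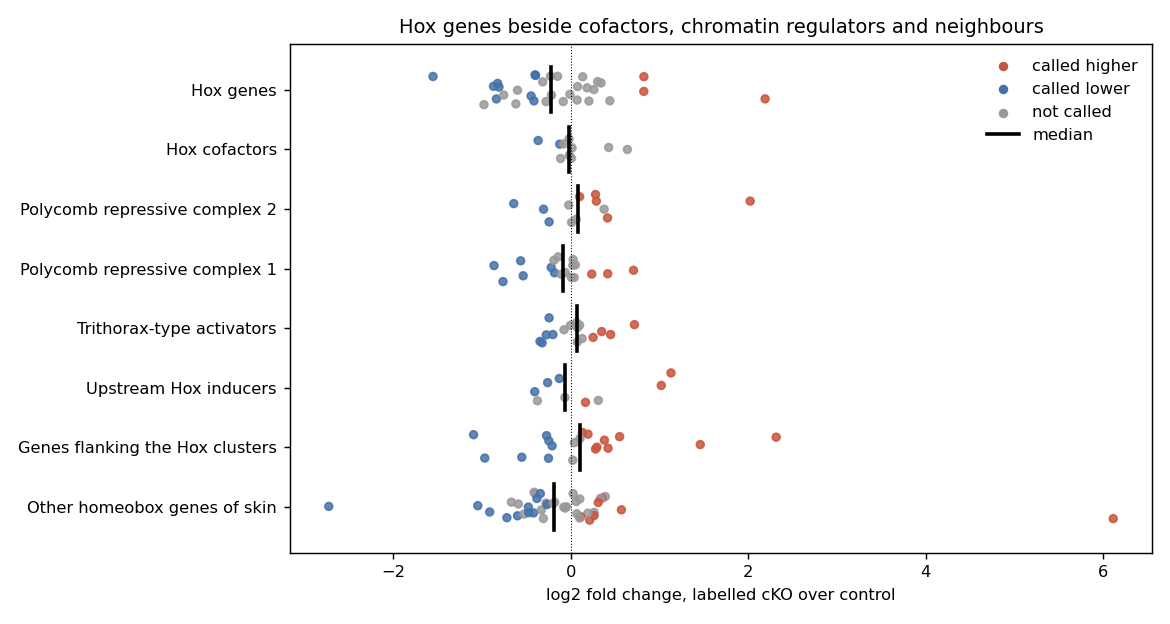
Log2 fold change of every tested member of the Hox genes and of 7 related lists, coloured by call (red higher, blue lower, grey not called), with the median of each list as a black bar. The Hox median lies at -0.22, and the cofactors cluster around 0 while the regulator lists spread to both sides.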

How the data were processed

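RNA from mouse tail skin was sequenced in 6 libraries, grouped by genotype and title in the labels. The authors deposited counts per gene, whole numbers that were not normalized, and FPKM for the same 18180 genes. The submitters' processing notes name fastp, HISAT2, HTSeq and the build mm39. For versions, annotation and strand setting: not given in the sources used here. The deposited FPKM equalled counts divided by 1 length per gene and the library total within a relative tolerance of 1e-06 for 18180 genes, so they hold the same reads. FPKM were used to set levels of different genes side by side.

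The test of the counts was run with edgeR 4.0.16 (R 4.3.3): filterByExpr (minimum count 10, minimum total 15), TMM scaling, quasi-likelihood fit with robust estimation, group as the only term, Benjamini-Hochberg adjustment over 15061 genes, and a call at an adjusted p under 0.05. Tests are two-sided. SE is the size of the log2 estimate over the root of F, and 95% intervals are normal ones from it. With 3 libraries a group, the smallest two-sided exact permutation p is 0.1. A count of 0 allows up to 3 counts, which is 0.0817 to 0.0837 CPM per library, for counting error only.

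The members and lists were chosen with earlier results of these data known. Genes named with values in every library are the 5 members with the highest FPKM, up to 6 called members per direction with at least 0.5 CPM, the highest of each cluster and those that flip under another scaling. Other members were shown in the same way after their values were seen. From each related list up to 3 called genes per direction with at least 1 CPM were named. Ezh2, Cdx2 and Pdgfra were chosen after their values were seen. The values of 1 member and 1 cofactor are not reported here, though both are in the counts of genes. Counts were simulated with the spread seen between libraries of a group, part or all of which may be technical, and with few genes changed. On them the test recovered 42% of 1.2-fold, 70% of 1.5-fold, 86% of 2-fold and 96% of 4-fold changes. It made 7 false calls among 154 calls. In the data 61.4% of genes tested were called, so these rates need not hold there. Promoter windows and gene spans come from RefSeq on GRCm38.p6, matched by gene number for 38 members, 22 of them with a promoter entry. In that annotation 20 member spans overlap another gene, and 10 overlap another Hox gene.

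Alternatives were DESeq2 1.42.0, limma-voom (limma 3.58.1), other scaling factors and count filters, limma on log2(FPKM + 1) or log2(FPKM + 0.1), an adjusted p of 0.01, a block on replicate number, an assumed coefficient of variation of 20%, leaving out muscle or keratin genes, and leaving out each library.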

Additional observations from a re-analysis of the deposited data

How the results depend on the processing

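Of the 12 Hox genes called, 6 (Hoxa5, Hoxa6, Hoxa7, Hoxa9 and Hoxc6 among them) kept call and direction under every alternative that could test them. The 9 lower and 3 higher calls became 8 to 13 and 2 to 4 when each library was left out, and 7 and 3 with an assumed coefficient of variation of 20%. That assumption left 1830 genes higher, 1531 lower and 17 called list members, beside 4637, 4607 and 68. The Hoxc5 call was also lost at an adjusted p of 0.01, and that of Hoxa3 with log2(FPKM + 1) without a filter (adjusted p = 0.0589). With the 20% assumption Hoxa13 and Hoxc4, not called before, had adjusted p of 0.0251 and 0.0477.

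Directions turned only in uncalled genes with small estimates. Hoxb2 was at 0.0083 with limma-voom, 0.019 with upper quartile factors, 0.013 with library totals, 0.023 with log2(FPKM + 1) with and without a filter, 0.032 with log2(FPKM + 0.1) and 0.0055 with the replicate block. With libraries left out in turn Hoxb2 ranged from -0.10 to 0.19, Hoxa11 from -0.37 to 0.012, Hoxb8 from -0.067 to 0.20, Hoxc11 from -0.57 to 0.12 and Hoxd4 from -0.18 to 0.012. The cause was not tested.

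Same-numbered libraries did not deviate together (correlations -0.0154, -0.0155 and -0.0577), so the numbers were not taken to pair them. With the replicate number as a block the calls were 9 lower and 3 higher among Hox genes and 4587 lower and 4625 higher over all genes. Depth limits the members with few counts: 6 of 38 could not be tested, and intervals of only 6 of 20 uncalled members lay within 1.5-fold either way.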
